A study of Mus musculus with 6 samples.

Results

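Of the 37384 gene symbols counted in these adipocyte libraries, 163 carry the name of a numbered ribosomal protein, and 161 of those were counted at least 10 times in at least 3 of the 6 libraries. They comprise 88 genes of the cytosolic ribosome and 73 of the mitochondrial ribosome. The genes were taken by a rule on symbol and count, which was chosen with earlier results of these data known. By name, the cytosolic genes divide into 46 of the large subunit (*Rpl*), 31 of the small subunit (*Rps*) and 11 copies or paralogues of these, and the mitochondrial genes into 47 of the large subunit (*Mrpl*) and 26 of the small subunit (*Mrps*). The remaining 2 symbols, *Mrpl53* and *Rpl10l*, had a count of 0 in every library, which allows up to 3 counts in each, and 82.0% of the 50-base stretches of *Mrpl53* also occur in an overlapping gene, *Gm42688*.

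Adipocytes were floated from collagenase-digested inguinal subcutaneous white adipose tissue (scWAT) of male mice at postnatal day 7 (P7), and each library was made from a pool of 4 mice. The 3 L1L2-FF libraries came from *Lats1*f/f *Lats2*f/f mice, which carry loxP-flanked alleles of both LATS kinases of the Hippo pathway and no Cre. The 3 libraries labelled L1L2-AKO came from mice with the same floxed alleles and *Adipoq*Cre, in which the adiponectin promoter drives Cre in adipocytes. The study describes this Cre as limited to mature adipocytes after birth, but active in some adipocyte precursors of fetal scWAT. Other cells may be carried along in the floated fraction, and whether any of them carried the deletion is not known here. Mice with Cre but without floxed alleles were not analysed here.

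A ribosome is built from ribosomal RNA and a large set of proteins, nearly all present as a single copy, so that the genes of one particle are usually expressed together. Cytosolic ribosomes translate the mRNAs of the nucleus, and most mRNAs of their own proteins start with a C and a run of pyrimidines, the 5′ terminal oligopyrimidine (TOP) motif, through which mTORC1 sets their translation. Mitochondrial ribosomes descend from bacterial ones and translate only the mRNAs of mitochondrial DNA, which code for subunits of the respiratory chain and ATP synthase. Their proteins are encoded in the nucleus, made in the cytosol and imported, and adipocytes draw on the respiratory chain for the synthesis of fat.

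The start sites of the genes show how far the ribosomes differ in this feature. In the RefSeq promoter table of GRCm38.p6, 63 of the 88 cytosolic and 64 of the 73 mitochondrial genes had a promoter sequence. A C followed by at least 7 pyrimidines, read on the coding strand within 20 bases on either side of the start, was found in 47.6% of these cytosolic promoters, in 15.6% of the mitochondrial ones and in 16.2% of the 11441 promoters of all tested genes that matched. The windows below run from 15 bases before to 15 bases after the annotated start, 5′ to 3′, with such a run in capitals. The cytosolic genes shown are 4 whose run lies at the start, and the mitochondrial genes are the 3 with the largest fitted decrease and the 1 that rose.
Rpl28: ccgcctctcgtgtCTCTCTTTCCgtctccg
Rps18: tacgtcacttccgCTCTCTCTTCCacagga
Rplp2: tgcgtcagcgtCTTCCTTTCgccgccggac
Rps6: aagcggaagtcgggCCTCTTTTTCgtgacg
Mrpl49: gcgcgcgcatatgacactcagttgaggcgc
Mrps31: cggaatccaaaaggagcggaacagtgcagg
Mrpl45: gtgcccgcgcgCCCCTCCCCTggagagcgt
Mrps6: tgctttcgccgtccgggagctgaccggccg

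In the same order, the windows lie at chr7:4792950-4792979 (plus strand), chr17:33955651-33955680 (minus), chr7:141447636-141447665 (plus), chr4:86857353-86857382 (minus), chr19:6057741-6057770 (minus), chr8:22411325-22411354 (plus), chr11:97315701-97315730 (plus) and chr16:92058321-92058350 (plus). *Mrpl45* was the only one of these 4 mitochondrial windows with a run of this kind. An ETS core, CCGGAAG on either strand, was found in 41.3% of the cytosolic, 32.8% of the mitochondrial and 18.4% of all matched promoters, counted from 250 bases before to 50 bases after the start. A YY1 core, ATGGCGG, was found in 17.5%, 17.2% and 8.57%, and an NRF1 core, GCATGCGC, in 4.76%, 9.38% and 5.50%. The TEAD core GGAATG, the element read by the factors that LATS kinases hold in check through YAP and TAZ, was found in 11.1% of the cytosolic and 12.5% of the mitochondrial promoters, beside 14.6% of all matched promoters. A match to these letters is a description of the sequence and not a binding site.

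Total counts were 30548473 to 32107917 per library, and replicate libraries differed from each other beyond sampling noise. *Lats1* was lower in the libraries labelled L1L2-AKO (mean 82.9 and 40.2 CPM, counts scaled to the TMM-adjusted library size; log2 fold change −1.04), whereas *Lats2* was higher (76.4 and 119 CPM; log2 fold change 0.64, edgeR adjusted p = 0.0278), against its label, and every direction given below rests on these labels. Counts per whole gene cannot resolve the loss of a floxed part of it. By quantitative PCR, the study reported less mRNA of both kinases in adipocytes of P7 L1L2-AKO scWAT. Marker levels also moved with genotype. Over 12 adipocyte markers the summed level was 35574 to 46197 CPM in L1L2-FF and 19680 to 25468 CPM in the libraries labelled L1L2-AKO, with none of the 12 at 0. By edgeR 5 of them were lower (41.7%, beside 7.18% of all tested genes), and 10 had a fitted decrease. *Plin4*, *Cidec*, *Fabp4* and *Lep* overlapped between genotypes, the last with a log2 fold change of 0.41. The highest of the 12, *Car3*, had means of 17467 and 6896 CPM and weighs heavily in the sums. All 10 macrophage markers were higher (100%, beside 9.28%), with sums of 251 to 497 and 945 to 1057 CPM. Of 6 Schwann cell markers 3 were lower (50%, beside 7.18%), with sums of 447 to 1276 and 151 to 398 CPM. In bulk libraries, fewer cells of a type and less RNA per cell cannot be told apart.

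No cytosolic ribosomal protein gene passed the threshold between genotypes. Of 88 genes, 0 had an edgeR adjusted p under 0.05, beside 16.5% of the 15674 genes tested, and 3 had an unadjusted p under 0.05, beside 30.8%. limma-voom called 0 of them and DESeq2 called 1, *Rps16*. Their median log2 fold change was −0.01 (interquartile range −0.08 to 0.05), close to the −0.02 of all tested genes, whose interquartile range was −0.31 to 0.26. The genotypes did not overlap in 14 of the 88, with 6 genes higher and 8 genes lower under the L1L2-AKO label, a share of 15.9% beside 36.4% of all tested genes. The median 95% interval reached 0.29 to either side of a gene's log2 fold change. It lay inside −0.5 to 0.5 for 72 of the 88 genes and inside −1 to 1 for 84.

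**Figure D1:**
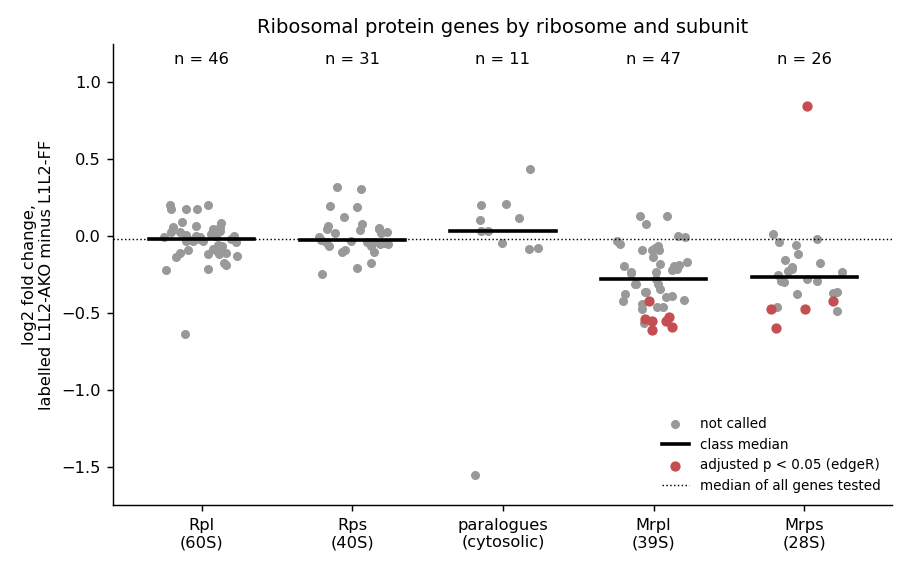
Log2 fold change (libraries labelled L1L2-AKO minus L1L2-FF, y axis) of each of the 161 ribosomal protein genes, grouped by ribosome and subunit, with the class median as a bar, genes past the edgeR threshold in red and the median of all tested genes dotted. The *Rpl* and *Rps* medians lie at −0.02, whereas the *Mrpl* and *Mrps* medians lie at −0.28 and −0.27, and *Mrps6* stands alone at 0.85.

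Measured per kilobase of transcript, the cytosolic genes had a median level of 204 CPM per kb in L1L2-FF and 201 in the libraries labelled L1L2-AKO. *Rplp1*, an acidic protein of the stalk that recruits elongation factors, was the highest of the large subunit, at 719 ± 12.5 and 718 ± 37.9 CPM per kb (SD, n = 3 per genotype). *Rpl41*, which codes for the smallest protein of the ribosome, followed at 675 ± 124 and 678 ± 42.7 CPM per kb. In the small subunit the highest were *Rps15*, at 591 ± 44.4 and 577 ± 41.0 CPM per kb, and *Rps6*, the phosphorylated target of S6 kinase, at 494 ± 74.1 and 480 ± 37.5 CPM per kb. The genotypes overlapped in all 4 of these genes. In L1L2-FF, *Rplp1* and *Rpl41* differed by less than the sum of their SDs, and so did *Rps15* and *Rps6*.

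*Rps16*, a small-subunit protein, gave 191, 206 and 190 CPM in L1L2-FF replicates 1 to 3 and 232, 252 and 250 CPM in the libraries labelled L1L2-AKO. The genotypes did not overlap, and its log2 fold change of 0.32 (95% interval 0.07 to 0.58) had an edgeR adjusted p of 0.0870 and a DESeq2 adjusted p of 0.0170. *Rps20*, also of the small subunit, gave 157, 154 and 137 CPM and then 166, 187 and 199 CPM. It too was higher in each library labelled L1L2-AKO, by 0.30 on the log2 scale (edgeR adjusted p = 0.131). Both genes were singled out after their values were seen. *Rpl28* and *Rps18*, whose start sites are shown above, had log2 fold changes of 0.00 ± 0.10 and 0.02 ± 0.14 (SE), and their genotypes overlapped.

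The cytosolic genes moved together between replicates more than between genotypes. Replicate 2 held the highest of the 3 L1L2-FF values in 59 of 88 genes and the highest of the 3 labelled L1L2-AKO values in 64. Shares over all tested genes are not given here for these counts. Both held at once in 52 of the 88 cytosolic genes. The summed level was 17105, 18716 and 17365 CPM in replicates 1 to 3 of L1L2-FF, against 17163, 18472 and 17237 CPM in the libraries labelled L1L2-AKO, so that the genotypes overlapped and replicate 2 was highest in each. These sums were 1.59% to 1.98% of all counts. The mean sums of the genotypes stood in a ratio of 0.994, a difference smaller than the spread between replicates (SD 865 and 735 CPM).

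**Figure D2:**
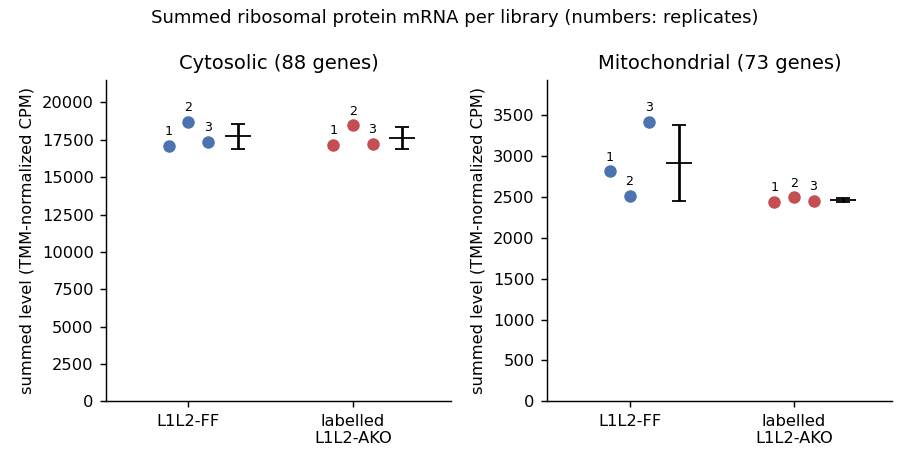
Summed level (TMM-normalized CPM, y axis from 0) of the 88 cytosolic and the 73 mitochondrial ribosomal protein genes in each library, with numbered replicates and the mean ± SD of 3 libraries per genotype. The cytosolic sums overlap, at 17105 to 18716 and 17163 to 18472 CPM, whereas the mitochondrial sums of L1L2-FF spread from 2512 to 3415 CPM above 2439 to 2491 CPM in the libraries labelled L1L2-AKO.

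None of the 11 paralogues and copies passed the threshold (edgeR; 1 at an unadjusted p under 0.05, 0 by DESeq2). *Rpl3l*, the counterpart of *Rpl3* in skeletal and heart muscle, gave 0.447, 0.742 and 0.451 CPM in L1L2-FF and 0.181, 0.0634 and 0.314 CPM in the libraries labelled L1L2-AKO. All 3 of the latter lay below the former (log2 fold change −1.55, 95% interval −2.87 to −0.24, edgeR adjusted p = 0.105), on 2 to 24 reads per library. Over 6 skeletal muscle markers the sums moved the same way, at 11.0 to 17.5 and 2.73 to 9.04 CPM, and their part in the *Rpl3l* values was not tested. *Rpl3* itself, at 385 to 547 CPM in L1L2-FF and 394 to 516 CPM in the libraries labelled L1L2-AKO, overlapped between genotypes.

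The protein-coding paralogues stood below or near their parents. Per kilobase, *Rpl22l1* stood at 47.0 ± 7.83 and 50.6 ± 3.49 CPM, near its parent *Rpl22* at 62.0 ± 11.1 and 57.2 ± 6.65 CPM (SD, n = 3). *Rps27l*, a p53 target, stood at 93.9 ± 18.5 and 89.2 ± 5.75 CPM per kb, below *Rps27* at 218 ± 48.8 and 212 ± 11.0. *Rpl36al*, *Rpl7l1* and *Rpl39l* were likewise below *Rpl36a*, *Rpl7* and *Rpl39*, the last by the largest ratio of these pairs, at 4.39 ± 1.48 against 106 ± 7.63 CPM per kb in L1L2-FF. Their fold changes ranged from −0.07 (*Rps27l*) to 0.43 (*Rpl39l*), and the genotypes overlapped in each.

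The other 5 copies are processed pseudogenes in the GENCODE annotation. Of all their 50-base stretches, *Rps12l1* shares 100% with other transcripts, *Rps3a2* 90.2%, *Rpl6l* 76.4%, *Rps3a3* 65.2% and *Rps4l* 14.9%, the last all with another pseudogene. The split of reads between the first 4 of these and *Rps12*, *Rps3a1* and *Rpl6* is therefore uncertain. *Rps12l1*, which overlaps *Nipa1*, had the lowest counts apart from *Rpl3l*, with 8 to 19 reads per library. Counts of *Rpl24*, at 11 to 26 reads and 0.332 to 0.838 CPM, were also far below those of any other gene of an intact cytosolic subunit, and 43.8% of its stretches occur in *Gm28037*, an overlapping transcript. *Gm28037* itself stood at 0 CPM in every library. *Rpl3l*, *Rps12l1* and *Rpl24* lay nearest to the count rule. Across the cytosolic genes a median of 23.9% of stretches was shared with another transcript, and across the mitochondrial genes 2.69%.

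Most mitochondrial ribosomal protein genes had a fitted decrease in the libraries labelled L1L2-AKO, down to −0.61 on the log2 scale, and 1 of them rose. By edgeR, 11 of 73 were lower with an adjusted p under 0.05 (15.1%, beside 7.18% of all tested genes) and 1 was higher (beside 9.28%). The share called in either direction, 16.4%, was near the 16.5% of all tested genes. The larger share of lower calls rested on the full set of libraries: without any single library other than L1L2-FF replicate 2 it was 1.37% to 5.48%, beside 2.9% to 6.13% of all tested genes. The fitted log2 fold change was below 0 in 67 of 73 (91.8%, beside 52.1%), with a median of −0.28 and an interquartile range of −0.42 to −0.13. In 30 of 73 genes (41.1%, beside 18.4%) each value labelled L1L2-AKO lay below each L1L2-FF value, and in 1 the reverse held (beside 18.0%). At an unadjusted p under 0.05, 27 were lower, beside 15.3% of all tested genes. The 73 genes share their libraries and are not 73 independent measurements.

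The lower calls were spread over both mitochondrial subunits. Of the 47 *Mrpl* genes 7 were lower (14.9%, beside 7.18% of all tested genes) and none higher, with a median log2 fold change of −0.28. Of the 26 *Mrps* genes 4 were lower (15.4%) and 1 higher, with a median of −0.27. These are the same calls as above, whose number depended on the libraries in the fit. When the genes were divided after their values were seen into those numbered as bacterial homologues and those found only in mitochondrial ribosomes, 6 of 42 (14.3%) and 5 of 30 (16.7%) were lower, with medians of −0.24 and −0.30. *Mrps36*, now assigned to the oxoglutarate dehydrogenase complex, was left out of this division, and its log2 fold change was −0.24 with overlapping genotypes. Differences between these classes were not tested.

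*Mrpl45*, a membrane-facing protein at the exit of the large subunit (chromosome 11, 97315716 to 97329920, plus strand), gave 45.2, 42.8 and 48.9 CPM in L1L2-FF and 31.8, 29.9 and 29.3 CPM in the libraries labelled L1L2-AKO. The groups were well apart, with a log2 fold change of −0.59 ± 0.11 (SE; edgeR adjusted p = 0.00858), the smallest adjusted p among the genes that fell. *Mrps31*, a small-subunit protein with no bacterial counterpart (chromosome 8, 22411361 to 22429665, plus strand), gave 31.8, 32.3 and 37.3 CPM and then 21, 23.2 and 23 CPM. Its highest labelled L1L2-AKO value lay well below its lowest L1L2-FF value, and it fell by 0.59 on the log2 scale (SE 0.12; edgeR adjusted p = 0.0126). In fits that left out each library in turn, *Mrpl45* and *Mrps31* kept their calls in 5 of 6, and without L1L2-AKO replicate 2 their edgeR adjusted p values were 0.0502 and 0.0521.

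*Mrpl49* (chromosome 19, 6053622 to 6057785, minus strand), another protein particular to the mitochondrial ribosome, gave 54.8, 50.6 and 68.0 CPM in L1L2-FF and 39, 38.7 and 36 CPM in the libraries labelled L1L2-AKO, a log2 fold change of −0.61 ± 0.13 (edgeR adjusted p = 0.0184). *Mrpl38*, also particular to the mitochondrial large subunit, gave 66.1, 54.2 and 59.3 CPM and then 41.7, 40.8 and 40.1 CPM, a log2 fold change of −0.55 ± 0.11 (edgeR adjusted p = 0.0133). *Mrpl30*, a homologue of bacterial L30, gave 77.0, 63.7 and 85.3 CPM and then 52.5, 53.6 and 49.5 CPM, a log2 fold change of −0.54 ± 0.13 (edgeR adjusted p = 0.0264). In all 3 genes the libraries labelled L1L2-AKO agreed closely with each other, and the L1L2-FF libraries were higher and more spread. *Mrpl38* and *Mrpl49* kept their calls in 3 of the 6 fits without a library and *Mrpl30* in 1.

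In the small subunit, *Mrps15*, the homologue of bacterial S15, gave 52.4, 47.2 and 59.0 CPM in L1L2-FF and 36.5, 38.4 and 39.4 CPM in the libraries labelled L1L2-AKO. *Mrps9*, the homologue of bacterial S9, gave 43.6, 45.4 and 47.5 CPM and then 32.2, 37.1 and 28.8 CPM. Neither gene overlapped between genotypes, and both had a log2 fold change of −0.47 (edgeR adjusted p = 0.0295 and 0.0354) that kept its call in 1 of the 6 fits without a library. The remaining genes that fell were *Mrpl14*, *Mrpl1*, *Mrpl9* and *Mrps35*, with log2 fold changes of −0.55, −0.52, −0.42 and −0.42. Of these, *Mrpl9* kept its call in 0 of the 6 fits and the other three in 1 each. *Mrpl14*, *Mrpl49* and *Mrpl9* overlap *Tmem63b*, *Syvn1* and *Oaz3*, and share 6.24%, 2.14% and 4.18% of their 50-base stretches with them.

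**Figure D3:**
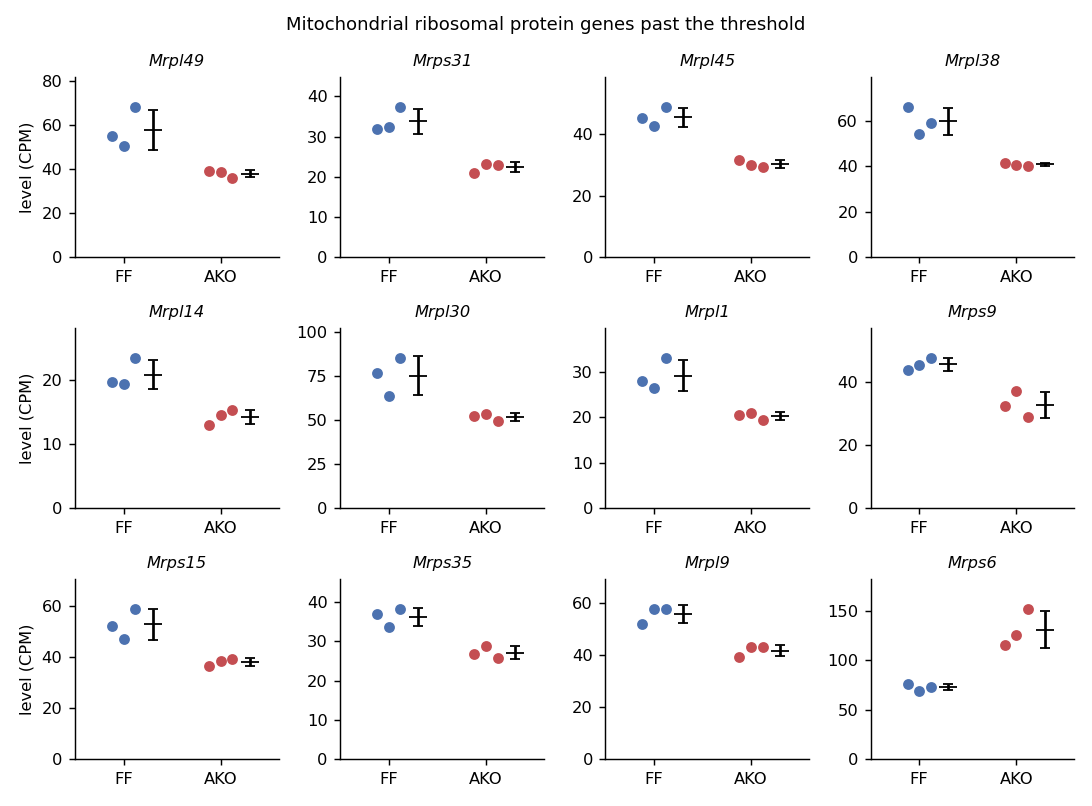
Level (CPM, y axis from 0) of the 12 mitochondrial ribosomal protein genes past the edgeR threshold in the 3 L1L2-FF libraries (FF) and the 3 libraries labelled L1L2-AKO (AKO), with the mean ± SD beside the points. In each panel the genotypes do not overlap, and *Mrps6* (69.3 to 75.9 and 116 to 152 CPM) is the only gene with the higher values on the right.

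*Mrps6*, the homologue of bacterial S6, was the exception. It gave 75.9, 69.3 and 73.4 CPM in L1L2-FF and 116, 126 and 152 CPM in the libraries labelled L1L2-AKO. The lowest of the latter stood well above the highest of the former, the log2 fold change was 0.85 ± 0.13 (edgeR adjusted p = 0.00441), and the call held in 6 of 6 fits without a library. The gene spans chromosome 16 from 92058270 to 92112227 on the plus strand, and *Slc5a3*, an osmotically induced inositol transporter, lies within that span and starts inside the *Mrps6* window printed above. *Slc5a3* rose as well, from 194, 264 and 121 CPM to 339, 509 and 683 CPM (log2 fold change 1.40, edgeR adjusted p = 0.0245). How reads in the overlap were assigned is not given in the sources used here, and its part in the *Mrps6* values was not tested.

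*Mrps6* was also the most abundant mitochondrial member per kilobase of transcript in the small subunit, at 86.1 ± 3.95 CPM per kb in L1L2-FF and 155 ± 22.3 in the libraries labelled L1L2-AKO (SD, n = 3). *Mrps21* followed at 73.5 ± 13.2 and 59.97 ± 4.74 CPM per kb. In the large subunit *Mrpl42* stood at 110 ± 23.4 and 83.8 ± 0.629 CPM per kb and *Mrpl20* at 105 ± 33.7 and 98.6 ± 6.37. These 2 levels differed by less than their SDs in L1L2-FF, and *Mrpl20* was the higher in the libraries labelled L1L2-AKO. *Mrpl42* did not overlap between genotypes but missed the threshold (68.2, 60.7 and 90.7 against 56.1, 56.0 and 55.3 CPM; edgeR adjusted p = 0.126), and *Mrpl20* and *Mrps21* overlapped. The median level over all 73 genes was 25.7 CPM per kb in L1L2-FF and 21.3 in the libraries labelled L1L2-AKO.

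The size of the mitochondrial difference depended on L1L2-FF replicate 3. That library held the highest value of all 6 in 66 of 73 genes, and L1L2-FF replicate 2 held the lowest of the 3 L1L2-FF values in 60. How often the same held over all tested genes is not given here. The median deviation of the 73 genes from their own means was 0.08, −0.09 and 0.40 on the log2 scale in replicates 1 to 3 of L1L2-FF, and was −0.14, −0.12 and −0.14 for the libraries labelled L1L2-AKO. The median coefficient of variation was 15.8% within L1L2-FF and 5.27% within the libraries labelled L1L2-AKO, beside 16.3% and 12.8% over all tested genes, and 67 of 73 genes were more spread in L1L2-FF.

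**Figure D4:**
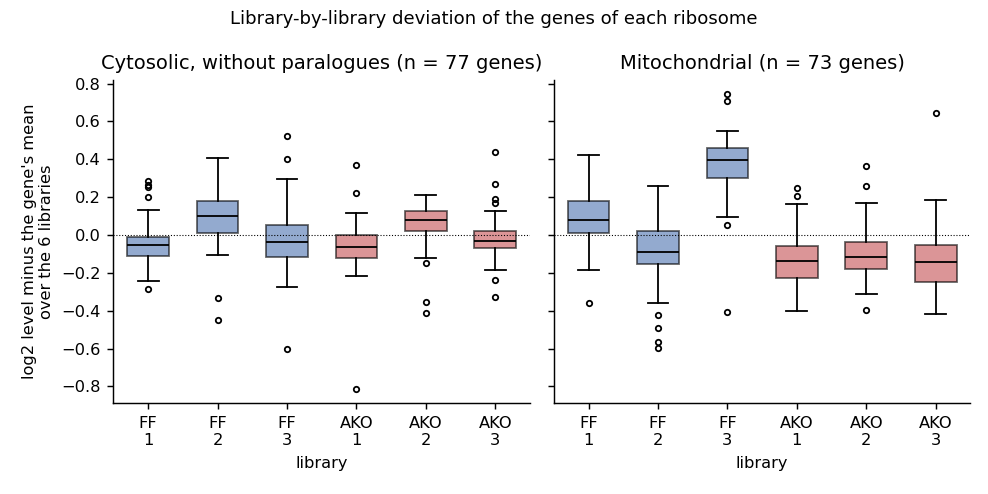
Log2 level of each gene minus its mean over the 6 libraries (y axis), as box plots per library for 77 cytosolic genes without the paralogues and for the 73 mitochondrial genes (FF, L1L2-FF; AKO, labelled L1L2-AKO; boxes, quartiles; whiskers, to 1.5 interquartile ranges). The mitochondrial medians are −0.09 to 0.40 in L1L2-FF and −0.14 to −0.12 in the libraries labelled L1L2-AKO, whereas the cytosolic medians are highest in replicate 2 of each genotype, at 0.10 and 0.08.

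The number of mitochondrial genes that fell changed with each library left out. It was 4, 1 and 2 without L1L2-AKO replicates 1 to 3, and 2, 22 and 4 without L1L2-FF replicates 1 to 3, while 1 gene was higher each time. In the same order these are 5.48%, 1.37%, 2.74%, 2.74%, 30.1% and 5.48% of the 73 genes, beside 4.75%, 2.9%, 3.3%, 3.2%, 8.09% and 6.13% of all tested genes. The share of lower calls was thus above that of all genes by a wide margin only without L1L2-FF replicate 2. The median log2 fold change was −0.12 without L1L2-FF replicate 3 and −0.38 without L1L2-FF replicate 2, and between −0.26 and −0.27 without any one of the other libraries. The fitted value was below 0 in 57 to 69 of the 73 genes in these fits.

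Summed over the 73 genes, the level was 2808, 2512 and 3415 CPM in replicates 1 to 3 of L1L2-FF, against 2439, 2491 and 2444 CPM in the libraries labelled L1L2-AKO. The genotypes did not overlap, but L1L2-FF replicate 2 stood close above the libraries labelled L1L2-AKO, and the ratio of means was 0.844. Without *Mrps6* the sums were 2732, 2443 and 3342 CPM against 2323, 2366 and 2291 CPM. Relative to the cytosolic sum of the same library, the mitochondrial sum was 16.4%, 13.4% and 19.7% in L1L2-FF, against 14.2%, 13.5% and 14.2% under the L1L2-AKO label. This ratio overlapped between genotypes, since L1L2-FF replicate 2 had the highest cytosolic and the lowest mitochondrial sum of its group. The adipocyte marker sums given above also differed between genotypes without overlap, and their part in the mitochondrial values was not tested.

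Ribosomal proteins under other symbols were listed as well. *Fau* and *Rack1*, proteins of the cytosolic small subunit, overlapped between genotypes, with log2 fold changes of −0.02 and 0.04. A list of 9 further mitochondrial ribosomal proteins held *Mrpl58*, which is also 1 of the 73 genes above. Of the other 8, 7 had a fitted decrease, the median log2 fold change was −0.27, and 1 was called lower (12.5%, beside 7.18%). This gene, *Aurkaip1*, a protein of the small subunit, stood at 67.0, 58.1 and 77.0 CPM in L1L2-FF and 48.9, 49.3 and 48.3 CPM in the libraries labelled L1L2-AKO (log2 fold change −0.46, edgeR adjusted p = 0.0393). It kept that call in 1 of the 6 fits without a library.

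Of 35 genes that assemble and run the mitochondrial ribosome, 6 fell by edgeR (17.1%, beside 7.18% of all tested genes), none rose, 34 had a fitted decrease and the median log2 fold change was −0.34. In 20 of them (57.1%, beside 18.4%) each value labelled L1L2-AKO lay below each L1L2-FF value. *Mtif3*, the initiation factor that keeps the subunits apart, gave 14.5, 12.5 and 16 CPM in L1L2-FF and 8.33, 9.04 and 8.28 CPM in the libraries labelled L1L2-AKO, a log2 fold change of −0.74 ± 0.15 (edgeR adjusted p = 0.0146).

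*Mterf4*, which brings an rRNA methyltransferase to the large subunit, gave 18.6, 17.8 and 18.3 CPM and then 10.6, 12.8 and 10.4 CPM, and *Noa1*, a GTPase of small-subunit assembly, gave 24.4, 25.4 and 30.2 CPM and then 18.9, 18.0 and 15.1 CPM. Both were clearly separated, at log2 fold changes of −0.70 and −0.62 (edgeR adjusted p = 0.0128 and 0.0230). *Mtif2*, which starts translation, *Eral1*, a chaperone of the small rRNA, and *Oxa1l*, the insertase that docks the ribosome at the inner membrane, fell by 0.52, 0.44 and 0.42 on the log2 scale. The 6 calls depended on the libraries in the fit: 3, 1 and 0 remained in number without L1L2-AKO replicates 1 to 3, and 0, 7 and 3 were made without L1L2-FF replicates 1 to 3. As shares of the 35 genes these are 8.57%, 2.86%, 0%, 0%, 20% and 8.57%, beside 4.75%, 2.9%, 3.3%, 3.2%, 8.09% and 6.13% of all tested genes in the same fits.

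Of the 41 genes that assemble the cytosolic ribosome, 0 passed the edgeR threshold, with 5 at an unadjusted p under 0.05 and 2 called by DESeq2. Their median log2 fold change was 0.17, the fitted value was above 0 in 30, and in 7 (17.1%, beside 18.0%) the libraries labelled L1L2-AKO all lay above L1L2-FF. Summed, they gave 1901 to 2149 CPM in L1L2-FF and 2177 to 2370 CPM in the libraries labelled L1L2-AKO. The count of higher genes was 1 without L1L2-FF replicate 2 and 3 without L1L2-FF replicate 3. In the same order, these fits called 2845 and 2283 genes at large in either direction.

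A list of 20 genes with TOP mRNAs, most of them translation factors, had a median log2 fold change of −0.06. In this list 1 gene was higher and 1 lower (5% each, below the 9.28% and 7.18% of all tested genes). *Nap1l1*, a histone chaperone whose mRNA is of the TOP class, gave 303, 450 and 328 CPM in L1L2-FF and 685, 709 and 880 CPM in the libraries labelled L1L2-AKO, all above the L1L2-FF range (log2 fold change 1.07, edgeR adjusted p = 0.00847, called in 6 of 6 fits without a library). *Eif3l*, a subunit of initiation factor eIF3, gave 274, 267 and 268 CPM and then 195, 197 and 171 CPM. Its libraries labelled L1L2-AKO were all lower, by a log2 fold change of −0.52 (edgeR adjusted p = 0.0193), and the call was lost without L1L2-AKO replicate 2, L1L2-AKO replicate 3 or L1L2-FF replicate 1.

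**Figure D5:**
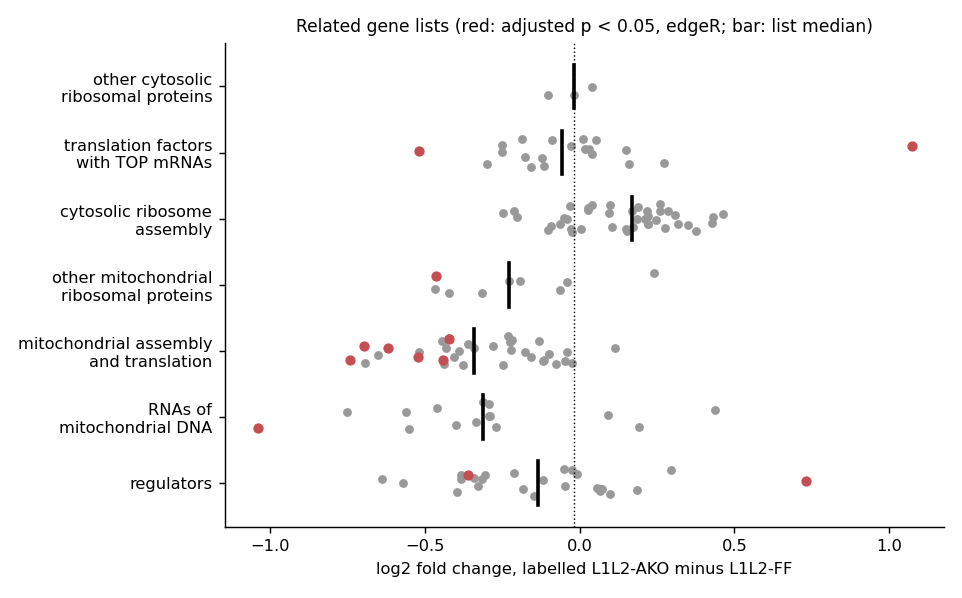
Log2 fold change (libraries labelled L1L2-AKO minus L1L2-FF, x axis) of each gene in 7 lists related to the ribosomes, with the list median as a bar, genes past the edgeR threshold in red and the median of all tested genes dotted. The medians are 0.17 for cytosolic and −0.34 for mitochondrial assembly genes, and −0.31 for the RNAs of mitochondrial DNA.

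Among 26 regulators of ribosome and mitochondrial gene expression, 1 rose and 1 fell (3.85% each, below the 9.28% and 7.18% of all tested genes), with a median of −0.13. The fitted value was below 0 in 18 (69.2%, beside 52.1%). In 8 (30.8%, beside 18.4%) each value labelled L1L2-AKO lay below each L1L2-FF value, and in 3 (11.5%, beside 18.0%) above. *Pprc1*, a PGC-1-related coactivator of genes for mitochondrial biogenesis, gave 22.5, 29.3 and 26.8 CPM in L1L2-FF and 45.5, 45.2 and 39.7 CPM in the libraries labelled L1L2-AKO, where every library was higher (log2 fold change 0.73, edgeR adjusted p = 0.00858, called in 6 of 6 fits without a library). *Tsc2*, which restrains mTORC1, gave 95.9, 93.1 and 101 CPM and then 75.3, 71.5 and 79.2 CPM. It was lower in every library labelled L1L2-AKO (log2 fold change −0.36, edgeR adjusted p = 0.0465), a call kept in 1 of 6 fits.

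The RNAs that the mitochondrial ribosome contains or translates are made from mitochondrial DNA, and 15 of them were tested. *mt-Nd6*, a subunit of complex I and the only mRNA of the light strand, gave 2621, 2789 and 2531 CPM in L1L2-FF and 946, 1391 and 1521 CPM in the libraries labelled L1L2-AKO. All the latter were lower (log2 fold change −1.04, edgeR adjusted p = 0.0142), a call lost without L1L2-AKO replicate 2 or L1L2-FF replicate 1. Whether counting used the strand is not given in the sources used here, so antisense reads cannot be told apart from it. The other mRNAs missed the threshold, and the median of the 15 RNAs was −0.31. In 6 of the 15 (40%, beside 18.4%) each value labelled L1L2-AKO lay below each L1L2-FF value, and in 2 (13.3%, beside 18.0%) above.

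The ribosomal RNAs *mt-Rnr1* and *mt-Rnr2* together gave 2896, 2461 and 2433 CPM in L1L2-FF and 3387, 3382 and 3381 CPM in the libraries labelled L1L2-AKO. These levels did not overlap, with the higher values in the libraries labelled L1L2-AKO, opposite in sign to the mitochondrial ribosomal protein mRNAs, although neither rRNA passed the threshold (edgeR adjusted p = 0.443 and 0.113). The libraries were made from RNA selected with oligo(dT), which captures only part of the mitochondrial rRNA, so these levels are not those of the ribosome itself. mRNA levels likewise do not measure ribosome number or translation.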

How the data were processed

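RNA of floated adipocytes was sequenced in 6 libraries, 3 per genotype, which the study describes as biological replicates. The authors aligned paired reads to mm10 with HISAT2 2.1.0 and processed them with StringTie 1.3.5, and deposited raw counts per gene symbol. The counting step, annotation and strand setting are not given in the sources used here. Counts were filtered with filterByExpr (minimum count 10, minimum total 15, leaving 15674 genes), scaled by TMM and tested with the quasi-likelihood test of edgeR 4.0.16 (R 4.3.3) over the 6 libraries, with Benjamini-Hochberg adjustment over all genes tested and a threshold of 0.05. CPM values use the TMM-scaled library sizes. Alternatives were other scalings, DESeq2 1.42.0, limma-voom 3.58.1, other filters, GC and length offsets, each library left out, a replicate block, and only members with under 50% of their 50-base stretches shared with other transcripts. The test was also run on simulated counts with increases only and without shifts of single libraries. That run does not bear on the decreases reported here. Lengths came from principal transcripts of GENCODE M21 (GRCm38), and shared stretches from all transcripts of a gene in the same annotation. In it, 36961 symbols matched directly and 348 by a synonym. Promoters came from RefSeq.

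The members and gene lists were chosen with earlier results of these data known, and no list was tested as a set. Named genes were the 2 most abundant per kilobase and up to 4 with the smallest p among called, non-overlapping genes of each subunit class, all paralogues with their parents, called genes against the majority, up to 3 called genes of each related list and the genes nearest to the count rule. The other mitochondrial genes that passed the threshold, *Rps16*, *Rps20*, *Rpl28*, *Rps18*, *Rplp2*, *Slc5a3*, *Mtif2*, *Eral1* and *Oxa1l* were named after their values were seen. The other marker lists had 1 of 8 (progenitor and fibroblast, lower), 0 of 6 (endothelial), 0 of 4 tested (skeletal muscle), 0 of 6 (red cell) and 0 of 6 (T and B cell) genes past the edgeR threshold, and at an unadjusted p under 0.05 they had 4, 0, 2, 0 and 1.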

Additional observations from a re-analysis of the deposited data

How the results depend on the processing

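Under every alternative run, the mitochondrial median stayed below 0 and 1 mitochondrial gene was higher. Apart from fits without a library, 8 (replicate block) to 17 (upper-quartile factors) mitochondrial genes were lower and the median ranged from −0.31 to −0.19. These 2 fits called 2514 and 2644 of all 15674 tested genes in either direction, beside 2580 in the main fit. Those totals hold both directions and are no direct background for the lower calls. The median of all tested genes was −0.014 and −0.054 in these 2 fits, beside −0.020 in the main fit. No cytosolic gene was called except 1 by DESeq2, and the cytosolic median was 0.057 with GC and length offsets. DESeq2 called 2 cytosolic assembly genes higher, 11 mitochondrial assembly genes and 2 regulators lower, and 1 RNA of mitochondrial DNA higher and 4 lower. It also called more genes at large, 3500 of the 15674 in either direction. The other alternative fits on all 6 libraries called 2413 to 2709 genes. With GC and length offsets, 3 cytosolic assembly genes were higher and 2 regulators lower. Regulators lower numbered 2 with library size alone and with upper-quartile factors, and 0 with DESeq2 size factors and without a filter. Without a filter, 0 mitochondrial ribosomal proteins of other names and 2 RNAs of mitochondrial DNA were lower, and the same numbers held with the replicate block.

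In fits without a library, 1 to 22 mitochondrial genes were lower (1.37% to 30.1%, beside 2.9% to 8.09% of all tested genes) and the median was −0.38 to −0.12. The cytosolic median was −0.05 to 0.04, the log2 ratio of summed levels −0.04 to 0.03 (cytosolic), −0.34 to −0.12 (mitochondrial) and −0.37 to −0.10 (their ratio). Calls lower were 0 to 7 of 35 (mitochondrial assembly, 0% to 20%) and 0 to 2 of 9 (mitochondrial proteins of other names). They were 0 to 1 each of 20 genes with TOP mRNAs, 26 regulators and 15 RNAs of mitochondrial DNA. All these stand beside the same 2.9% to 8.09% of all tested genes. Of 41 cytosolic assembly genes, 0 to 3 were higher. The fits called 1281 to 2845 genes in either direction, and the share called higher is not given here.

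Same-numbered libraries of the genotypes correlated at 0.19, 0.26 and −0.05 in their deviations, and not every library correlated best with its own number. With only 3 deviations per genotype, each taken from its own genotype mean, these values cannot decide whether the numbers pair the samples. For single named genes, 679 values kept their side of the threshold, 54 calls were lost and 1 was gained. The depth, at least 30548473 counts per library, limits the precision only of the genes with the lowest counts, such as *Rpl3l*, *Rpl24* and *Rps12l1*. Why *Rpl24* was counted so rarely was not tested. For the others the 3 libraries per genotype set the precision.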

Other observations

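The mitochondrial rRNA sums of the libraries labelled L1L2-AKO (3387, 3382 and 3381 CPM) had an SD of 3.29 CPM, beside 260 CPM in L1L2-FF. The near-equality appears after scaling to library size, and no test was made of it. The pseudogene symbols of ribosomal proteins summed to 1012 to 1216 CPM in L1L2-FF and 1026 to 1188 CPM in the libraries labelled L1L2-AKO, which overlapped. The summed mRNAs of mitochondrial DNA stood at 106229 to 112721 CPM in L1L2-FF and 72260 to 101680 CPM in the libraries labelled L1L2-AKO, without overlap.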
